A study of Mus musculus with 9 samples.

Results

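Mouse chromosome 15 was examined outside the stretch from 60 to 64 Mb, which was left out as the neighbourhood of the oncogene Myc. Its members were all array probes whose deposited position lies on chromosome 15 outside that stretch. They numbered 37081 of the 38163 probes of the chromosome and of 963261 distinct probes in all, or 3.85% of the array. The chromosome and 3 amplified pieces of it were chosen by the measured tumour-to-pool ratios described here, so these ratios are given as descriptions and no test is attached to them. Differences between groups of tumours were not used in choosing the chromosome and were tested, but inside the 3 pieces a difference that involves the parous tumour repeats their choice.

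DNA from 9 mouse mammary tumours was hybridised on 2-colour tiling arrays, 1 array per tumour, with tumour DNA in red (Cy5) and pooled tail DNA of tumour-free mice in green (Cy3). Per the labels, all 9 tumours came from mice of mixed background with Rb and p53 removed by Cre recombinase, and the pool came from the same mixed background. In 7 tumours the MMTV promoter, used for expression in the mammary gland, drove Cre, and of these 1 was labelled nulliparous, 1 parous and 5 transplant. The other 2 tumours were labelled Ad-Cre (CMV promoter, delivered by adenovirus) and transplant. The titles call all 9 primary tumours, so what was transplanted is not settled by the labels, nor are ages or the number of donors. Replicate numbers only name the tumours. Nothing says that the transplants had separate donors, so p-values measure the spread between these 9 samples.

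Copy number on tiling arrays is read as the ratio of tumour to reference signal along a chromosome. A gain of a whole chromosome raises every probe by a small step, while amplification multiplies a short stretch many times and ends in sharp edges. Mouse chromosome 15 carries Myc, and its gain is a well-known change of mouse tumours.

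The 34 genes of a list of growth and mammary genes show what else the chromosome carries, by chromosome and order alone, because the array files name neither genes nor a genome build. In the gene table used here (GRCm38.p6), 33 of the 34 lie on chromosome 15, with 13 before Myc and 19 after it, while Fgf10, a fibroblast growth factor, does not. Before Myc lie the receptors for growth hormone (Ghr), prolactin (Prlr), leukaemia inhibitory factor (Lifr) and oncostatin M (Osmr), the mTOR complex subunit Rictor, the ubiquitin ligase subunit Skp2 and the cohesin subunit Rad21. After Myc lie the kinase gene Ptk2, the heat shock factor Hsf1, the ligands Pdgfb, Wnt1 and Wnt10b, the activin and BMP receptors Acvr1b and Acvrl1, the acetyltransferase Ep300 and the epithelial keratins Krt5, Krt8 and Krt18. Of 776 protein-coding genes of the chromosome in that table, 204 lie before Myc and 571 after it. None of these genes can be placed inside or outside a piece below, and a level of the chromosome is not a level of any one of them.

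The arrays were alike in quality. Array medians of the reference signal were 1068 to 1147, or 21.8 to 32.4 times local background, and those of the tumour signal 1067 to 1157, or 14.9 to 17.9 times background. On chromosome 15 no spot was saturated, between 37020 and 37034 member probes were used per array, and the median spacing of the probes was 1823 bp. With 9 arrays, their number sets how precise a mean can be. A run of probes on chromosome 11, taken as the Cre-deleted part of the p53 gene, kept between 30.7% and 59.8% of the signal of its flanks in 8 tumours. It kept 97.8% in the library labelled MMTV-Cre transplant 2, against the label, so the mean level, the share of gained windows and the group differences are also given without it.

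Chromosome 15 stood above the tumours' autosomal median in 9 of 9 tumours. The members' median log2 ratio, relative to the autosomal median of the array, was 0.29 in the nulliparous and 0.13 in the parous tumour. In MMTV-Cre transplants 1 to 5 it was 0.14, 0.43, 0.16, 0.03 and 0.19, and in Ad-Cre transplants 1 and 2 it was 0.23 and 0.02. The library labelled MMTV-Cre transplant 2 was highest, the nulliparous tumour was next, and MMTV-Cre transplant 4 and Ad-Cre transplant 2 lay closest to 0. As linear ratios these levels ran from 1.01 to 1.35.

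The mean was 0.18 ± 0.13 (SD, n = 9), and 0.15 ± 0.09 (SD, n = 8) without the library labelled MMTV-Cre transplant 2. With a normexp background correction of the unprocessed signals the mean over the 9 tumours was 0.28. Among the 19 autosomes, chromosome 15 ranked 2 by its mean over tumours. Within tumours its rank was 1 in MMTV-Cre transplant 5, 2 in 4 tumours, and between 3 and 5 in the other 4. Ad-Cre transplant 2, at a level of 0.02, was among those of rank 2.

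The left-out neighbourhood of Myc cannot enter the members' median, and its own level was set beside theirs. The left-out stretch had medians of 0.28 in the nulliparous tumour, 0.13, 0.42, 0.14, 0.01 and 0.17 in MMTV-Cre transplants 1 to 5, and 0.20 and 0.01 in the Ad-Cre transplants. In these 8 tumours the members lay 0.01 to 0.02 above it. In the parous tumour the left-out stretch stood at 0.61, which put the members 0.48 below it (difference -0.48). At the boundary itself, the 50 member probes before 60 Mb averaged 0.16 in the parous tumour and the 50 left-out probes after it 0.15, while the 50 left-out probes before 64 Mb averaged -0.02 and the 50 members after it -0.16. The boundary therefore cut no amplification, and that of the parous tumour lay inside it, from 61054267 to 62787015 at a mean log2 ratio of 3.12.

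**Figure D1:**
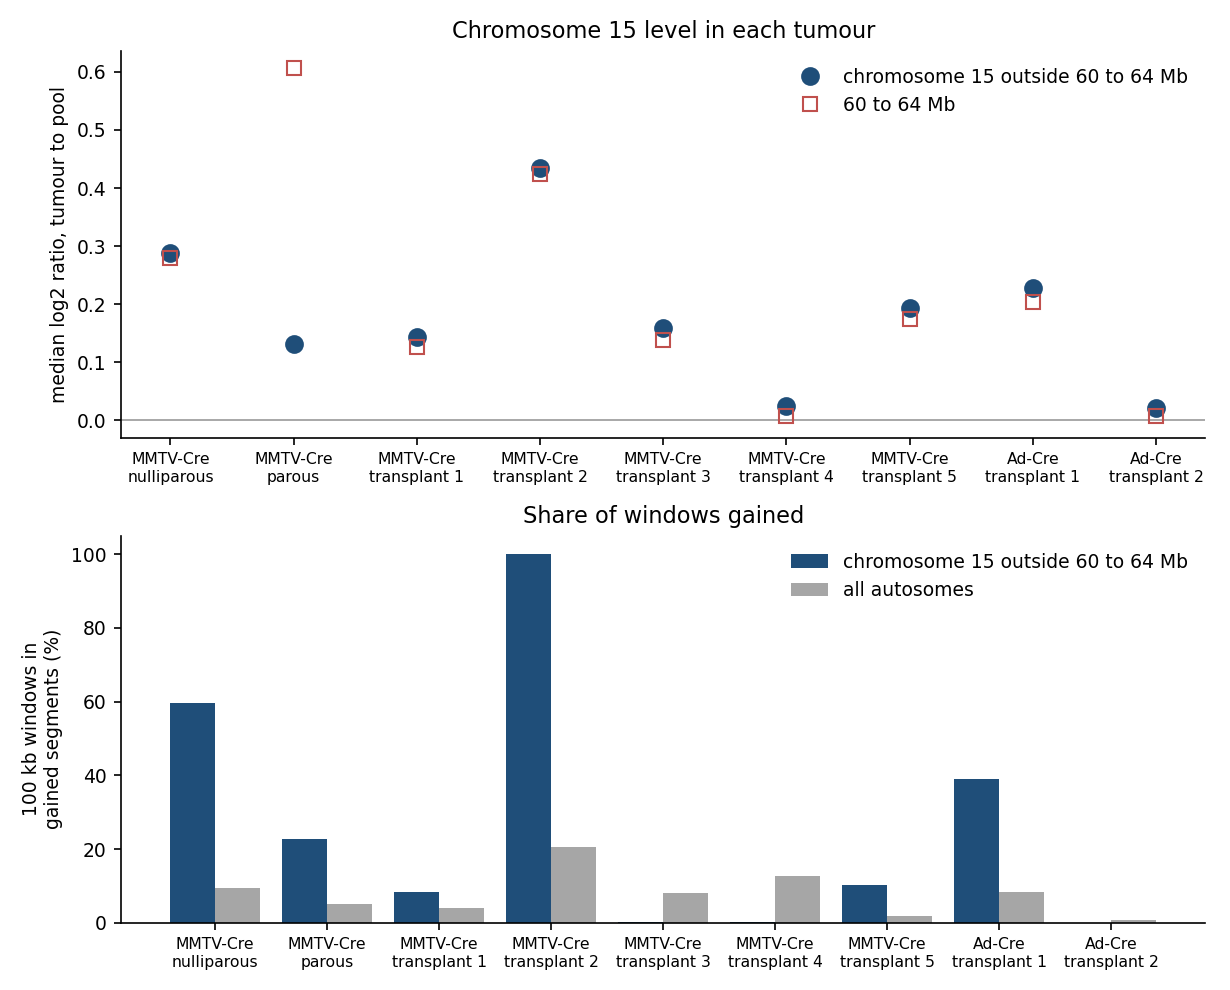
The upper panel plots the median log2 ratio of tumour to pool in each of the 9 tumours, for chromosome 15 outside 60 to 64 Mb (filled circles) and for that stretch (open squares). The lower panel plots the percentage of 100 kb windows in segments at 0.25 or more, on chromosome 15 (blue bars) and on all autosomes (grey bars). The circles lie between 0.02 and 0.43, and circle and square part widely only in the parous tumour.

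To see how much of the chromosome was raised, each profile was divided into segments of constant level by a penalised least-squares method, and 100 kb windows in segments of 0.25 or more were counted as gained. In the nulliparous tumour 59.6% of the 964 windows of chromosome 15 were gained, against 9.41% of autosomal windows. In the parous tumour the values were 22.6% and 5.02%. They were 99.9% and 20.6% for the library labelled MMTV-Cre transplant 2, the widest gain of the 9, with 963 windows raised.

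In MMTV-Cre transplant 1 the share was 8.30% against 3.98% of autosomal windows, and in MMTV-Cre transplant 5 it was 10.2% against 1.73%. In Ad-Cre transplant 1 it was 39.1% against 8.29%. The remaining tumours lay below their autosomes, with 0.104% against 7.97% in MMTV-Cre transplant 3, 0.207% against 12.6% in MMTV-Cre transplant 4, and 0% against 0.681% in Ad-Cre transplant 2. The share was thus above the autosomal share in 6 tumours and below it in 3. Its mean was 26.7% ± 34.2 (SD, n = 9), and 17.5% ± 21.8 (SD, n = 8) when MMTV-Cre transplant 2 was left out. The normexp correction raised it to 48.7% (n = 9). Whole-chromosome levels of 0.13 to 0.19 fall below 0.25, so a low share does not mean that the chromosome was level with the rest: with a threshold of 0.15 the mean share was 53.5%, and with 0.4 it was 7.15%.

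The raised level ran along the chromosome. In stretches of 10 Mb the median log2 ratio was above 0 in all 11 stretches in 7 tumours, in 10 in Ad-Cre transplant 2 and in 6 in MMTV-Cre transplant 4. Averaged over the 9 tumours, these medians were highest at the end beyond 100 Mb, at 0.24 ± 0.14 (SD, n = 9), and at 30 to 40 Mb, at 0.23 ± 0.13 (SD, n = 9). They were lowest at 40 to 50 Mb, at 0.12 ± 0.12 (SD, n = 9). A median of a stretch gives little weight to an amplified piece that holds a minority of its probes.

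Windows of 100 kb with the highest means lay at 46.7 Mb (0.55), 36.6 Mb (0.48), 31 Mb (0.45), 100.7 Mb (0.44) and 19.9 Mb (0.43). The window at 100.7 Mb owed its mean to 1 tumour, with 2.10 in the parous tumour and 0.03 to 0.46 in the others. The other 4 windows were above 0.25 in every tumour, from 0.26 in Ad-Cre transplant 2 at 36.6 Mb to 0.96 in the library labelled MMTV-Cre transplant 2 at 46.7 Mb. The lowest means were at 77.3 Mb (-0.16), 14.1 Mb (-0.05), 21.5 Mb (-0.05), 47.1 Mb (-0.02) and 41.8 Mb (-0.02). At 77.3 Mb the mean came from the nulliparous tumour, at -2.22, and the library labelled MMTV-Cre transplant 2, at -2.42, while the other 7 tumours were between 0.12 and 0.76.

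Beyond its level, chromosome 15 of the parous tumour held 3 amplified pieces that the other 8 tumours lacked. The piece near 52 Mb ran from 52458442 to 52513546, 55.1 kb with 7 probes. The piece at 67 to 69 Mb ran from 67371769 to 69235886, 1.86 Mb with 497 probes. The piece near 100 Mb ran from 100527368 to 101298455, 771 kb with 450 probes. Positions are those of the array files, whose genome build is not given in the sources used here. The pieces lay 14.9 Mb and 31.3 Mb apart, and the first of these gaps also holds the left-out amplification.

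Near 52 Mb the mean log2 ratio of the 7 probes was 2.26 in the parous tumour, a 4.78-fold ratio to the pool. In the nulliparous tumour it was 0.24, in MMTV-Cre transplants 1 to 5 it was 0.14, 0.42, 0.10, -0.01 and 0.15, and in the Ad-Cre transplants it was 0.17 and -0.04. The parous tumour stood alone and the others followed the level of their own chromosome. Against the 100 probes on each side the piece was raised by 2.20 in the parous tumour and by -0.08 to 0.00 in the other 8. All 7 probes, from 1.83 to 2.75, lay above every flanking probe. The 4 probes before the piece lay between -0.14 and 0.22 and the 4 after it between 0.03 and 0.28.

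At 67 to 69 Mb the mean was 1.65 in the parous tumour, a 3.15-fold ratio to the pool. It was 0.21 in the nulliparous tumour, 0.10, 0.34, 0.12, -0.02 and 0.13 in MMTV-Cre transplants 1 to 5, and 0.16 and -0.02 in the Ad-Cre transplants. The piece rose above its flanks by 1.58 in the parous tumour, against -0.01 to 0.03 elsewhere. Inside, the level was even: the means of its 4 parts of equal probe count were 1.63, 1.62, 1.70 and 1.66, with probe SDs of 0.21 to 0.27. At the start the ratio went from 0.28 at probe 67359741 to 2.002 at the next probe, 67371769, and at the end from 1.74 at 69235827 to -0.47 at 69242479.

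Near 100 Mb the mean was 1.96 in the parous tumour, a 3.90-fold ratio to the pool. It was 0.36 in the nulliparous tumour, 0.15, 0.44, 0.15, 0.05 and 0.24 in MMTV-Cre transplants 1 to 5, and 0.26 and 0.00 in the Ad-Cre transplants. Above its flanks the piece rose by 1.66 in the parous tumour, against -0.03 to 0.00 in the others. Its 4 parts averaged 2.04, 2.03, 1.82 and 1.96. The level changed between 2 neighbouring probes at each end, from 0.37 to 2.18 at the start and from 1.95 to 0.12 at the end, within 1986 and 2135 bp.

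The rise came from the tumour channel. In the parous tumour the red signal, as log2 of its ratio to the array's autosomal median, stood at 2.62, 1.62 and 2.01 in the 3 pieces, beside medians of 0.63, 0.12 and 0.28 in the other 8 tumours. The green signal of the pool was 0.34, -0.05 and 0.04 in the parous array, and 0.45 to 0.50, -0.02 to -0.01 and 0.06 to 0.08 in the others. The size of each rise depended on the background correction: with a normexp correction of the unprocessed signals the rises over the flanks were 2.78, 2.09 and 2.20. A single tumour was parous, so parity cannot be told apart from what is particular to that tumour.

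**Figure D2:**
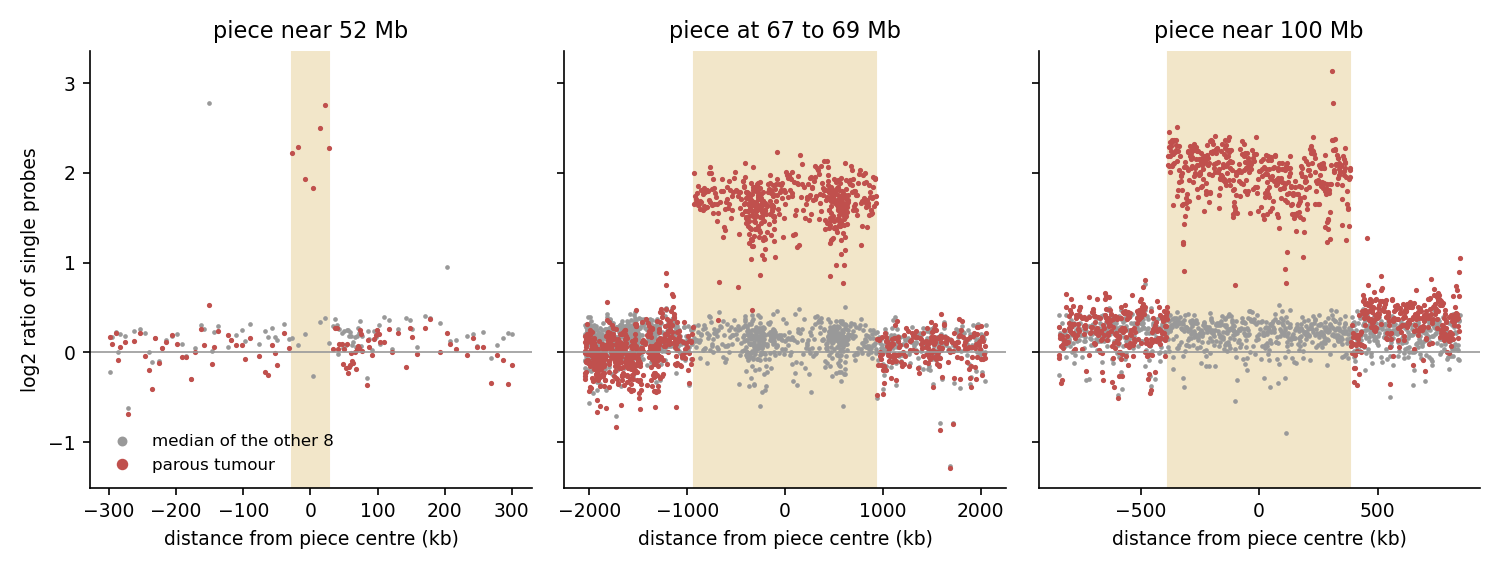
Log2 ratios of single probes are plotted against the distance from the centre of each piece in kb, for the parous tumour (red) and the median of the other 8 tumours (grey), with the extent of the piece shaded. Red probes within the shading centre on 2.26, 1.65 and 1.96 and drop to the level of the grey probes at both edges.

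Breakpoints were counted where neighbouring segments differed by 0.2 or more. Outside 60 to 64 Mb the nulliparous tumour had 16 and the parous tumour 20. There were 4, 9, 2, 4 and 2 in MMTV-Cre transplants 1 to 5, and 1 and 0 in the Ad-Cre transplants. The mean was 6.44 ± 7.11 (SD, n = 9). The nulliparous and the parous tumour held 36 of the 58 breakpoints, and 6 of the 9 tumours had 4 or fewer. As a share of each tumour's autosomal breakpoints, chromosome 15 held 18.0% for the parous tumour, 13.4% for the nulliparous one and 0% to 5.88% for the others, while its members were 4.06% of the autosomal probes. The parous share includes the edges of the amplified pieces, which were used in choosing the chromosome, so it partly repeats that choice.

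The breakpoints of the parous and the nulliparous tumour were of different kinds. In the parous tumour 16 of 20 had more than 20 probes on each side, and 18 were not shared with another tumour within 20 kb. In the nulliparous tumour only 4 of 16 had more than 20 probes on each side, and the rest bounded short stretches. Of the 40 steps of 0.5 or more in all tumours, all 40 bounded 1 of the 3 pieces or of 9 short stretches described below. The counts rested on the segmentation: with a penalty factor of 20 in place of 10 the mean fell to 1.78 per tumour, of which the parous tumour had 12, with the normexp correction it fell to 2.56, and with no filter on dim spots it rose to 23.8.

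The parous tumour also had steps of 0.2 or more, large or small, against the other tumours on all 19 autosomes. Each tumour's profile was set against the median of the other 8, and segments of more than 20 probes were compared with their neighbours. On chromosome 15 the parous tumour then had 26 steps of 0.2 or more, the library labelled MMTV-Cre transplant 2 had 2, and the others had none. The same count over all autosomes was 277 in the parous tumour and 33 to 113 in the others, and in the parous tumour 28 of these lay on chromosome 4, 24 on chromosome 12 and 5 to 19 on each of the other autosomes. Chromosome 15 was thus second among the 19, with 9.39% of the parous tumour's steps beside 4.06% of the autosomal probes. Its 26 steps include the edges of the longer amplified pieces, which were used in choosing the chromosome. The share and the rank, which rests on 26 steps against 24 on chromosome 12, therefore partly repeat that choice. Whether the steps are rearrangements was not tested. Among the members on chromosome 15 the longest raised segment of this kind ran from 28066032 to 30603579, 2538 kb at 0.29 above the other tumours. A segment of 306 kb from 98025020 stood 0.33 above them, and 1 of 350 kb from 50481468 stood 0.23 below them (difference -0.23).

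The chromosome also carried a low-amplitude pattern that recurred in 8 tumours. With the chromosome median removed, medians of 1 Mb bins were correlated between tumours over the 91 bins that the 3 pieces do not touch. The 28 pairs among the 8 tumours other than the parous one had Pearson correlations of 0.73 to 0.97, with a median of 0.87. The parous tumour correlated with the others at 0.41 to 0.56, with a median of 0.47. These arrays share a pool and a probe design, and bins of 1 chromosome are not independent. The common pattern ran from -0.13 to 0.09 on the log2 scale. It correlated at 0.60 with the number of probes per bin and at 0.37 with the reference signal, and in the parous tumour these values were 0.26 and 0.05.

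The pattern had different heights. Its SD over the 91 bins was 0.08 in the nulliparous tumour, 0.04, 0.06, 0.05, 0.06 and 0.07 in MMTV-Cre transplants 1 to 5, and 0.06 and 0.03 in the Ad-Cre transplants. Ad-Cre transplant 2 was the flattest. The parous tumour, at 0.11, varied most. On the other autosomes the correlation of each tumour with the median of the rest had a median of 0.27 in the parous tumour and of 0.75 to 0.94 in the others. On chromosome 15 the parous value by this measure, with the pieces kept, was 0.21. The departure of the parous tumour was thus not a feature of chromosome 15 alone. Single autosomes were low in other tumours too, down to -0.31 in Ad-Cre transplant 2. Segment edges recurred too. Outside the left-out stretch 9 positions were edges of segments in at least 3 tumours within 20 kb, among them 37269078 in 6 tumours, 20633127 in 5, and 16622088, 44017442 and 89707862 in 4 each.

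**Figure D3:**
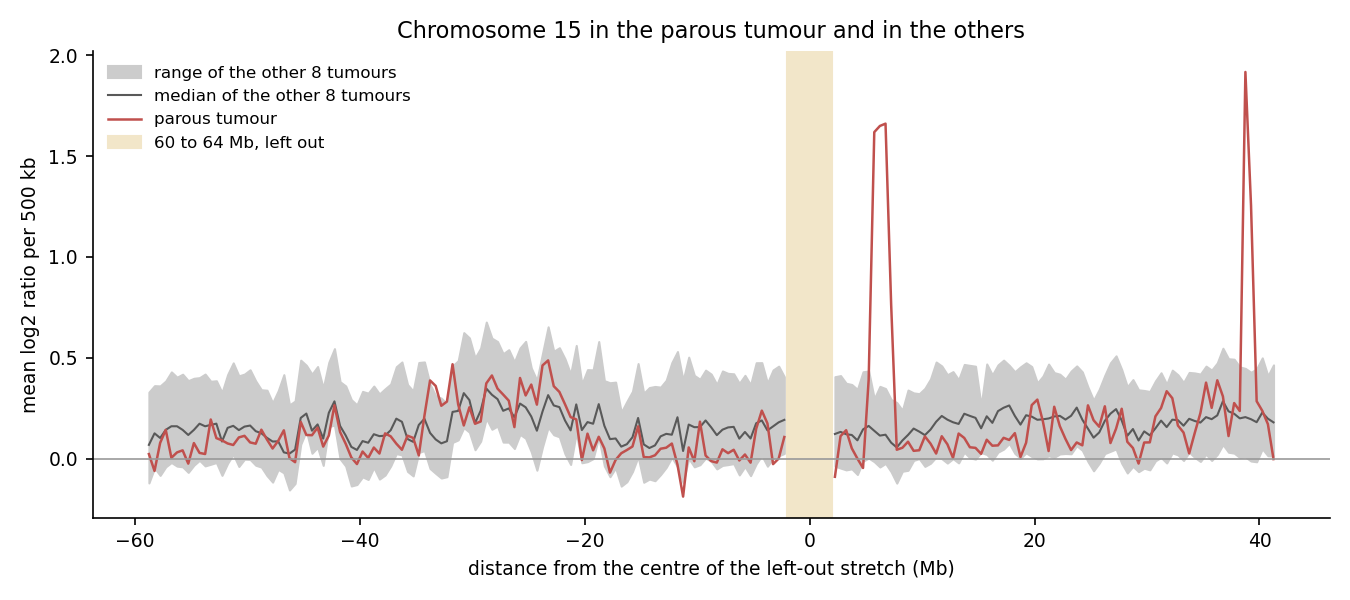
Mean log2 ratios per 500 kb are plotted along chromosome 15 by distance in Mb from the centre of the left-out stretch, for the parous tumour (red line) and for the other 8 tumours (grey line, median; grey band, lowest to highest). The pieces at 67 to 69 Mb and near 100 Mb rise above 1.5, the 55.1 kb piece near 52 Mb is too short to show at this scale, and elsewhere the red line stays mostly within the band but moves apart from the grey line.

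Apart from the 3 pieces, 9 short stretches stood at least 0.6 from the median of chromosome 15 in some tumour. The stretch from 30446329 to 30461588, 15.3 kb with 11 probes, was high in every tumour. Its mean log2 ratio was 1.72 in the nulliparous and 1.37 in the parous tumour, 1.48, 1.84, 0.91, 1.13 and 1.09 in MMTV-Cre transplants 1 to 5, and 1.18 and 0.90 in the Ad-Cre transplants. Its edges were breakpoints in 6 tumours. The reference signal there was 0.72 of the autosomal median and 84.8% of its spots passed the filters. With the normexp correction the nulliparous value was 0.97.

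The stretch from 14992022 to 15110774, 119 kb with 18 probes, was graded between tumours. It stood at 1.05 in the nulliparous and 0.66 in the parous tumour, at 0.49, 0.91, 0.00, 0.24 and 0.02 in MMTV-Cre transplants 1 to 5, and at 0.04 and -0.09 in the Ad-Cre transplants. The nulliparous tumour was highest, the library labelled MMTV-Cre transplant 2 next and the parous tumour after it, above the remaining 6. Its reference signal was 1.195 of the autosomal median and all its spots were used.

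The stretch from 43398683 to 43478451, 79.8 kb with 13 probes, was high throughout, with 0.50 to 0.77 in 8 tumours. At 1.18, the library labelled MMTV-Cre transplant 2 exceeded them. The stretch from 36145992 to 36152757, with 5 probes, stood at 1.69 in the nulliparous and 1.77 in the parous tumour and at 0.11 to 0.65 in the other 7. The nulliparous and parous means used 5 probes and the others used 4, so they do not cover the same probes. The stretch was also picked for its height in the nulliparous and the parous tumour. With the normexp correction the parous value there was 1.14. The stretch from 39139673 to 39156462, with 9 probes, ran from 0.27 to 1.55 without a gap between groups, and only 56.8% of its spots passed the filters. Its means used 4 to 6 probes per tumour, and the tumours with 6 were highest, at 1.15 to 1.55. Its value in MMTV-Cre transplant 4, 1.55, was 0.32 with the normexp correction and 2.73 with no filter on dim spots.

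Other stretches were low in 1 or 2 tumours. From 77310653 to 77370763, over 6 probes, the nulliparous tumour was at -4.27 and the library labelled MMTV-Cre transplant 2 at -4.71. The other 7 tumours were between -0.04 and 1.15. The first breakpoint of this stretch lies in a gap of 67180 bp between neighbouring probes, and its reference signal was 0.48 of the autosomal median. With the normexp correction the value of MMTV-Cre transplant 2 was -0.88, and with spots dim in either channel left out it was -2.28, so how low it lay depended on the processing.

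From 3512500 to 3515578, over 3 probes, the nulliparous tumour was at -3.28 and the other 8 between 0.39 and 1.44. That low value was -0.38 with the normexp correction and -2.05 with spots dim in either channel left out. From 34528509 to 34545888, over 11 probes, it was at -0.57 and the other 8 between 0.09 and 0.45. The normexp correction turned the value of -0.57 to 0.02, and leaving out spots dim in either channel gave -0.10. From 58479992 to 58487940, over 5 probes, the library labelled MMTV-Cre transplant 2 was at -2.004, the parous tumour at -0.93 and the other 7 between -0.51 and 0.08. With the normexp correction the value of MMTV-Cre transplant 2 was -0.95.

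**Figure D4:**
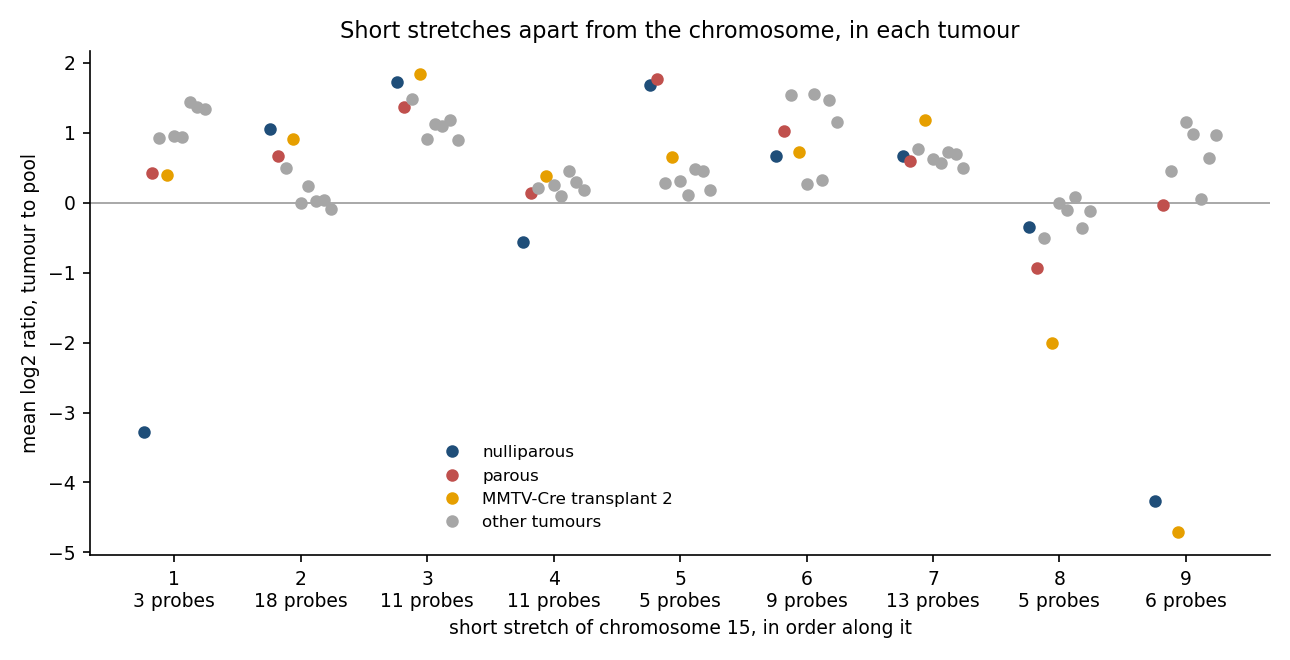
The mean log2 ratio of tumour to pool in the 9 short stretches is plotted in their order along the chromosome, starting at 3.51, 14.99, 30.4, 34.5, 36.1, 39.1, 43.4, 58.5 and 77.3 Mb, with 1 point per tumour and the number of probes under each. The nulliparous tumour (blue) and the library labelled MMTV-Cre transplant 2 (orange) hold the low points at -3.28, -4.27 and -4.71, and all points of the third stretch lie at 0.90 or above.

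Tumours of the 2 Cre models were compared on the level of the chromosome. The mean of the medians was 0.12 ± 0.15 (SD, n = 2) in Ad-Cre tumours and 0.20 ± 0.13 (SD, n = 7) in MMTV-Cre tumours, a difference of -0.07. By an exact two-sided permutation test over 36 groupings the p was 0.50, or 1 adjusted over the 2 comparisons, where the smallest p the design allows is 0.0278. The groups overlapped, with 1 Ad-Cre tumour above 5 of the MMTV-Cre tumours and the other below all of them. The sign rested on the latter, Ad-Cre transplant 2, whose chromosome 11 run kept 59.8% of the signal of its flanks, against 34.9% in Ad-Cre transplant 1. Whether this bears on its low level was not tested. Without Ad-Cre transplant 2 the difference was 0.03, and without Ad-Cre transplant 1 it was -0.18. Without the library labelled MMTV-Cre transplant 2 it was -0.03 (exact permutation p = 0.714). With arrays centred on the mode it was -0.14 (exact permutation p = 0.222). On the scan day that held both models, with 2 tumours of each, it was -0.09 (exact p = 0.667, and 6 groupings do not allow a p under 0.05).

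In windows of 100 kb, limma with Benjamini-Hochberg adjustment called 0 of 963 windows of chromosome 15 different between the models, beside 0% of all 24805 windows. Unadjusted p fell under 0.05 in 0 windows of chromosome 15 and 555 in all. The window with the smallest p, from 15000001 to 15100000 inside the graded stretch, differed by -0.52 ± 0.25 (SE; limma, adjusted p = 0.882), with the Ad-Cre tumours at -0.01 and -0.12. Within the scan day that held both models, the MMTV-Cre tumours are the nulliparous and the parous one. There limma called 25 of 963 windows of the chromosome, beside 37 higher and 121 lower in Ad-Cre tumours among all 24805. Of the 25 windows, 23 lay in the 3 pieces and were lower in Ad-Cre tumours. Those 23 repeat the choice of the pieces, which was made on the parous tumour, and are no evidence on the models. In simulated data of this design limma found 53.5% of windows with a shift of 0.5 and 93.0% with a shift of 1. The simulated windows varied independently with normal noise, unlike neighbouring windows of a tumour, so these rates do not carry over directly to the arrays.

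Transplanted MMTV-Cre tumours were compared with the nulliparous and parous ones. The means were 0.19 ± 0.15 (SD, n = 5) and 0.21 ± 0.11 (SD, n = 2), a difference of -0.02. The exact two-sided permutation p over 21 groupings was 1, and 1 after adjustment, where the smallest possible is 0.0476. The 2 groups overlapped, and the sign was positive without the nulliparous tumour (0.06) or without MMTV-Cre transplant 4 (0.02). Without the library labelled MMTV-Cre transplant 2 it was -0.08 (exact permutation p = 0.467). The transplants were scanned on other days than the nulliparous and parous tumours, so scan day and group cannot be told apart here.

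limma with the same adjustment called 0 of 963 windows between these groups, beside 0% of all windows, and 28 and 1078 windows had an unadjusted p under 0.05. The window with the smallest p, from 90900001 to 91000000, was 0.33 ± 0.10 (SE) higher in transplants (limma, adjusted p = 0.866). With the nulliparous tumour left out, the parous tumour stood alone for its group. The windows of chromosome 15 that limma then called all lay within the 3 pieces, with differences of -1.88 to -1.31 in transplants. The spread in that fit came from the transplants alone, and since the pieces were chosen on the parous tumour these calls repeat that choice and are no evidence on transplantation.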

How the data were processed

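DNA of 9 tumours was hybridised against 1 tail DNA pool, 1 array each. Per the file headers, the authors extracted the spots with Feature Extraction 10.5.1.1, whose processed signals are intensity values after background subtraction and dye normalisation. Median signals are uncorrected intensity values. The deposited ratios and the series table are log10 of red over green, per the file headers. No array held normal DNA in the tumour channel and no dyes were swapped.

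For each probe the log2 ratio of processed signals was taken after leaving out spots with a reference not well above background or flagged as non-uniform or population outliers (1597 to 2115 per array), with the autosomal median of the array set to 0. Probes in bins of 5 were segmented by PELT (penalty factor 10, at least 2 bins). Windows of 100 kb with at least 3 probes, 24805 over all chromosomes, were fitted in limma (version 3.58.1, under R 4.3.3), where an adjusted p (Benjamini-Hochberg) under 0.05 was called, and group levels were compared by exact two-sided permutation tests. Segmentation used numba 0.67.0 and numpy 2.4.6 in Python 3.11.15, tables used pandas 2.3.3, and plots used matplotlib 3.10.9. On simulated data segmentation found 100% of shifts of 0.25 over 200 probes, with 0 false segments in 50 flat profiles. A flat profile lacks the low-amplitude pattern shared between tumours, so this 0 does not carry over to the tumour arrays. How many of their segments are false was not tested.

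The members, the gene list and the settings were chosen with earlier results of these data known. The text names the 3 pieces, segments at least 0.6 from the tumour's chromosome 15 median, steps of 0.5 or more, and the 5 highest and 5 lowest 100 kb windows by mean with at most 1 per 5 Mb. Of the 12 pieces and stretches so found, 6 have the at least 10 probes that the rule asks of segments, and the others are named for their steps. Genes are named by chromosome and order, since the files name none. The run on chromosome 11 was compared with 20 probes on each side. Alternatives were other background corrections, centring, filters, segmentation settings, windows, scan day, and each tumour left out. Windows of the autosomes alone and the comparison with the median of the other tumours were chosen after seeing the data. Calls of a limma fit against the pool, made as planned, are not reported, since its ratios chose the chromosome. No probe or genomic sequence was used here.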

Additional observations from a re-analysis of the deposited data

Results flagged for a closer look

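Of 15 quantities checked over all 9 tumours and over the 5 MMTV-Cre transplants, 11 values lay apart from the rest of their group by a gap larger than Dixon's 95% critical value. The pieces and stretches were picked for such departures, so for them this only describes the choice and is no test.

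In the parous tumour the log2 ratios of 2.26, 1.65 and 1.96 in the pieces near 52 Mb, at 67 to 69 Mb and near 100 Mb lay apart from the other 8 tumours. In the nulliparous tumour the stretch at 3.51 Mb, at -3.28, and that at 34.5 Mb, at -0.57, lay apart. The library labelled MMTV-Cre transplant 2 lay apart at 43.4 Mb, at 1.18, and at 58.5 Mb, at -2.004, the latter also among the transplants alone. Among the transplants it was set apart by 3 further values, namely -4.71 at 77.3 Mb, a share of gained windows of 99.9%, and 9 breakpoints. This is the library whose chromosome 11 run kept 97.8% of its signal.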

How the results depend on the processing

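Under 6 other settings of the signals the mean level of chromosome 15 was 0.15 to 0.28 and the mean share of gained windows 18.2% to 48.7%. With gain thresholds of 0.15 and 0.4 the share was 53.5% and 7.15%. These values lie within 1 SD between tumours, but that wide spread does not measure the effect of processing and is no measure of stability. With each tumour left out the level ran from 0.15 to 0.20 and the share from 17.5% to 30.0%. The mean number of breakpoints was 2.56 with normexp correction, 1.78 with a penalty factor of 20, 2.67 with bins of 10 probes, 15.3 with a penalty factor of 5 and 23.8 without the filter on dim spots, and 4.75 to 7.25 with each tumour left out. The cause was not tested, other than that a larger penalty and wider bins admit fewer segments by construction. For the parous tumour alone the count was 33 and 12 with penalty factors 5 and 20, 11 with bins of 10, and 8 with a step of 0.4.

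Over their flanks the pieces near 52 Mb, at 67 to 69 Mb and near 100 Mb rose by 2.78, 2.09 and 2.20 with normexp. With within-array loess the rises were 2.04, 1.49 and 1.56. Under centring on the mode, the series table and both other filters they moved by less than the spread of the other tumours. Centring cannot change a difference from flanks on the same array, and the series table holds the same ratios, so this is no measure of stability.

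The difference between Ad-Cre and MMTV-Cre tumours ran from -0.18 to 0.03 with each tumour left out, and turned positive without Ad-Cre transplant 2 (0.031). The difference between transplants and other MMTV-Cre tumours ran from -0.10 to 0.06, positive without the nulliparous tumour (0.060) and without MMTV-Cre transplant 4 (0.023). On chromosome 15 limma called 0 of 963 windows between the models with each MMTV-Cre tumour left out, beside 0% of all 24805 windows. Within scan day 3 it called 25 of 963, beside 37 higher and 121 lower in Ad-Cre tumours among all 24805. With each transplant left out, the comparison of transplants with other MMTV-Cre tumours called 0 of 963. Among all 24805 it called 23, higher in transplants, without MMTV-Cre transplant 2 and 0 without any other transplant. Without the nulliparous or the parous tumour, limma compared the transplants with 1 tumour alone, so no count over all windows is given there. Between transplants and others it called 0 to 26 with each tumour left out. Of the 25 windows 23, and of the 26 windows all, lay in the 3 pieces chosen on the parous tumour, so they repeat that choice and test nothing about the groups. The value of the short stretch at 34.5 Mb in the nulliparous tumour was 0.018 with normexp. For the 9 short stretches, 43 of 54 values moved by less than the spread of the tumours, 10 moved further in size and 1 changed sign. That spread includes the extreme tumour itself, and centring on the mode and the series table hardly alter the values, so the count is no measure of stability. With normexp, only the stretches at 14.99 and 43.4 Mb stayed within the spread.

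No paired analysis was possible because the labels number no replicates and 2 of the 4 groups hold a single tumour. The 2 Ad-Cre tumours limit what any comparison of models can find.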
